A study of Mus musculus with 8 samples.

Results

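The 4 libraries described here were the PBS libraries, 4 of the 8 libraries of a mouse series on regulatory T cells in early pregnancy. They were chosen by their title and treatment label, and each was taken to be the whole uterus of 1 female, with the conceptuses left inside. The females were 8 weeks old, carried the Foxp3DTR allele, were pregnant by allogeneic BALB/c sires, and were collected at embryonic day 8 (E8). PBS had been given into the peritoneum on E1, E3, E5 and E7. Foxp3DTR places a receptor for diphtheria toxin under control of Foxp3, so these control animals carried the transgenic receptor without the toxin. Whether the females were homozygous, their genetic background, the number of implantation sites and whether a library came from 1 animal alone are not stated in the labels. The replicate numbers in the titles are 1, 2, 4 and 6, and values below are in that order. The titles also end in S1 (replicates 1 and 2) or S2 (replicates 4 and 6), and the labels do not say what these letters mark. Most conceptus genes were lower in replicates 4 and 6, as given below, and how much conceptus each library held was not tested.

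At this stage the mouse uterus is dominated by decidua, the tissue that stromal cells form under progesterone after an embryo implants. Decidual cells secrete hormones of the prolactin family, protease inhibitors and matrix, and they surround maternal vessels and a large population of uterine natural killer (NK) cells. Around the decidua lie the muscle layers of the myometrium and remnants of glands, and within it lie trophoblast giant cells, the ectoplacental cone, the yolk sac and the embryo. A whole-uterus library mixes all of these, so a level is the sum over cells that express a gene: fewer cells of a type and less RNA per cell cannot be told apart.

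Total counts ranged from 101276607 to 107118021 per library, and levels are CPM, a gene's count scaled to that total. At this depth 3 counts correspond to 0.028 to 0.0296 CPM. Between 30145 and 31187 genes had reads, and 15220 genes were at 1 CPM or more in every library. The libraries did not stand at equal distances. Over the 10397 genes at a mean of 10 CPM or more, the median absolute log2 ratio was 0.08 between replicates 1 and 2, 0.14 between replicates 4 and 6, and 0.29 between replicates 1 and 4. Genes at least 2-fold apart numbered 54 between replicates 1 and 2 and 747 between replicates 2 and 4. Replicate 6 differed in a further way: 8 loci grouped here as ribosomal-type (Gm42418, CT010467.1, Lars2, Gm23935, Mir6236, Gm15564, Gm24270 and Gm12896) took 9.06%, 6.8%, 6.42% and 0.892% of counts. The median gene stood 0.18 higher on the log2 scale in replicates 4 and 6 than in replicates 1 and 2 by library total, 0.12 higher with these loci left out of the total, and -0.03 after scaling by trimmed means of M values (TMM). Counts of genes higher in one pair are therefore given on both scales. Counts of genes highest or lowest in 1 library are by library total unless TMM is named, and they depend on scaling too. Of genes at a mean of 10 CPM or more, 22.5% were lowest in replicate 4 by library total and 42.7% by TMM.

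The 5 markers given for this tissue, of decidua and of collagen-rich stroma, were all present in all 4 libraries and all among the 11 most abundant genes by CPM. Prl8a2 encodes decidual prolactin-related protein (chromosome 13, 27345673 to 27354216, plus strand, GRCm38) and was at 6278, 8109, 3025 and 6826 CPM. It was high in 3 libraries and lowest in replicate 4. A2m, the protease inhibitor alpha-2-macroglobulin (chromosome 6, 121635376 to 121679227, plus strand), was at 15674, 14631, 11448 and 15689 CPM, a coefficient of variation (CV, the SD over 4 libraries divided by their mean) of 13.96%. Psap encodes prosaposin, the precursor of lysosomal sphingolipid activators (chromosome 10, 60277627 to 60302597, plus strand), and was at 17525, 19051, 5634 and 14529 CPM. Gpx3, a secreted glutathione peroxidase (chromosome 11, 54902453 to 54910377, plus strand), was the steadiest of the 5 at 10674, 10134, 8798 and 10382 CPM, with a CV of 8.30%. Col1a1, the main chain of type I collagen (chromosome 11, 94936224 to 94953042, plus strand), ran the other way from Psap, at 2765, 2426, 4967 and 4397 CPM. The 2 groups of libraries by title suffix did not overlap for Psap, which was higher in S1, or for Col1a1, which was higher in S2, under library total and under TMM.

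Levels of different genes can be compared only per length, here as mean CPM per kilobase of exon. On that scale Prl8a2 was the protein-coding nuclear gene with the highest level, at 6453 ± 2304 (SD, n = 4). Gpx3 followed at 5514 ± 458 and Psap at 5169 ± 2187 CPM per kilobase. A2m stood at 2045 ± 285, close to the translation factor Eef1a1 at 1815 ± 87.7. Col1a1, with a long transcript, stood at 554 ± 188. By CPM alone, which favours long genes, A2m ranked 3, Psap 4, Gpx3 5, Prl8a2 7 and Col1a1 11 of all genes.

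**Figure D1:**
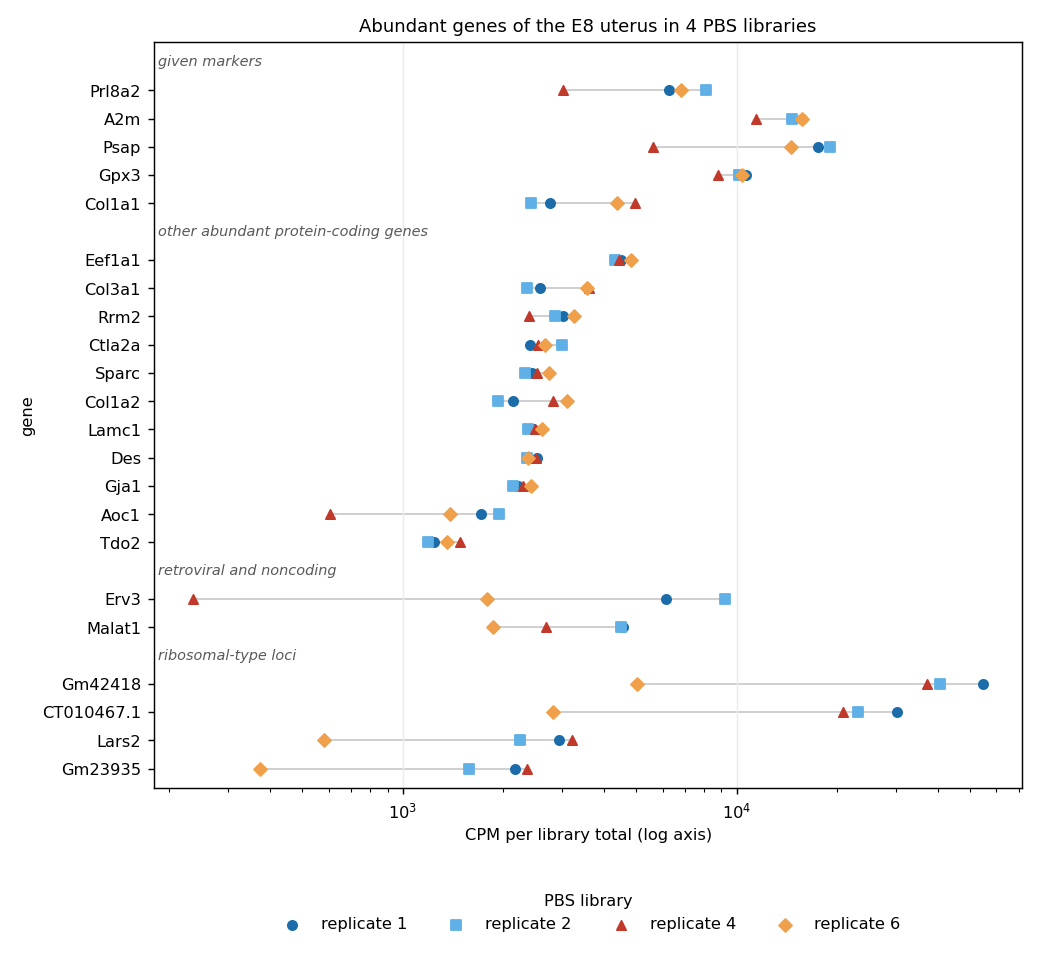
CPM per library total of abundant genes (log axis, 1 row per gene) in the 4 PBS libraries, 1 point per library, with a grey line from the lowest to the highest. Gpx3, Eef1a1, Sparc and Des have nearly coincident points, Psap, Aoc1 and Erv3 are lowest in replicate 4, and the ribosomal-type loci are lowest in replicate 6.

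Apart from these markers, the most abundant nuclear protein-coding genes included a translation factor, matrix genes and genes known in decidua. Eef1a1, which brings aminoacyl-tRNA to the ribosome, was at 4498, 4329, 4439 and 4836 CPM, above the matrix and decidual genes given next. Col3a1 was at 2582, 2349, 3602 and 3565 CPM and Col1a2 at 2142, 1927, 2827 and 3107 CPM, both higher in the S2 libraries. Sparc, a matrix glycoprotein that binds collagen, was at 2438, 2319, 2532 and 2750.1 CPM, and its CV was 7.27%. Lamc1, the laminin gamma 1 chain of basement membranes, was at 2458, 2369, 2491 and 2606 CPM with a CV of 3.93%. These matrix genes differ in steadiness. All of them were higher in both S2 libraries by library total, but the fibrillar collagens by more, while Sparc and Lamc1 stayed nearly level. Rrm2, the ribonucleotide reductase subunit that supplies deoxynucleotides for DNA synthesis, was at 3013, 2856, 2382 and 3261 CPM. Ctla2a, a cysteine protease inhibitor known in decidua, was at 2409, 3009, 2542 and 2670 CPM, and 16.0% of the 75-base windows of its transcripts also occur in other genes. Gja1, the gap junction protein connexin 43 of decidual cells and myometrium, was at 2218, 2141, 2296 and 2418 CPM with a CV of 5.20%.

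Noncoding, viral and mitochondrial RNAs also stood among the most abundant. Gm42418, a noncoding locus of ribosomal type, was at 54689, 40608, 37135 and 5025 CPM, and CT010467.1, which overlaps it, was at 30219, 23071, 20792 and 2825 CPM. Lars2, a mitochondrial leucyl-tRNA synthetase gene grouped with them, was at 2941, 2239.9, 3206 and 580.3 CPM and Gm23935 at 2164, 1583, 2353 and 374 CPM. All of these were lowest in replicate 6. Transcripts of the mitochondrial genome behaved differently: mitochondrially encoded genes together took 2.17% to 2.49% of counts, and mt-Co1 was at 8561, 8099.7, 8417 and 8300.2 CPM. Erv3, an endogenous retroviral gene (chromosome 2, 131853678 to 131859747, minus strand), was at 6130.2, 9218, 236 and 1788 CPM, among the 10 most abundant genes by its mean and yet low in replicate 4. Malat1, a nuclear noncoding RNA, was at 4564, 4506, 2684 and 1857 CPM, higher in both S1 libraries. The 10 most abundant genes took 15.9%, 14.2%, 11.0% and 7.75% of counts, and 888 genes held 50% of all counts by mean level.

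Most genes varied little between the 4 uteri. Over 16051 genes at a mean of 1 CPM or more the median CV was 14.4%, and over the 10397 genes at 10 CPM or more it was 11.9%. The median fell from 20.8% for 5654 genes between 1 and 10 CPM to 12.2% for 8374 genes between 10 and 100 CPM and 10.7% for 1957 genes between 100 and 1000 CPM. It was 12.2% for the 66 genes at 1000 CPM or more. Counting error alone gives a median CV of 5.46% in the lowest of these classes and 0.757% between 100 and 1000 CPM, so most of the spread lay between libraries. With n = 4, the 95% interval of an SD runs from 0.567 to 3.73 times the measured one if values are normally distributed, so a single CV is coarse. A CV of at least 50% at a mean of 10 CPM or more, called variable below, was reached by 250 genes, 2.4% of those tested. A CV of at most 5%, called stable below, was reached by 1081 genes, 10.4% of those tested. Without replicate 4 the stable genes numbered 2079 and without replicate 6 they numbered 1638.

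**Figure D2:**
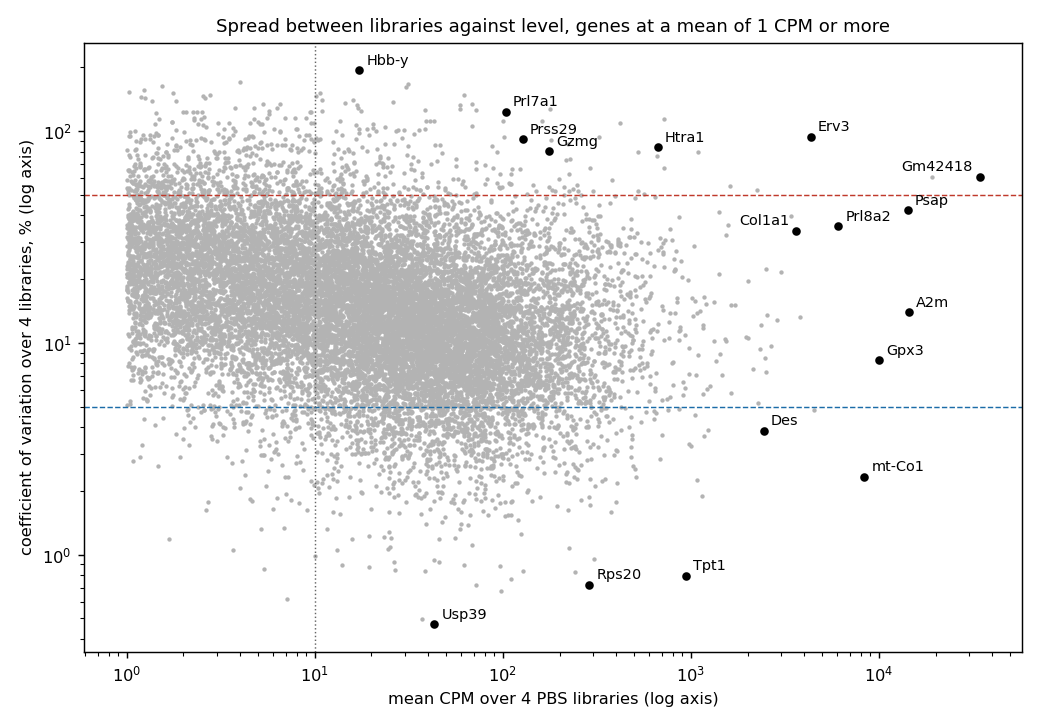
CV over 4 PBS libraries (%, log axis) against mean CPM (log axis) for 16051 genes, 1 grey point each, with named genes in black. The dashed lines mark CVs of 5% and 50% and the dotted line a mean of 10 CPM. Hbb-y has the highest CV of the named genes and Usp39 the lowest.

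By library total the variable genes had a direction that the genes as a whole did not share. Of the 250, 137 were highest in replicate 2, 83 in replicate 4, 16 in replicate 6 and 14 in replicate 1, and 135 were lowest in replicate 4. Among genes at a mean of 1 CPM or more, 5.65% were highest in replicate 1, 16.5% in replicate 2, 48.9% in replicate 4 and 29% in replicate 6, and 40.3%, 32.8%, 20.5% and 6.42% were lowest there. The highest library was at least 10 times the lowest for 170 genes, 1.06% of these. Both S1 libraries lay above both S2 libraries for 147 of the 250 (TMM 188 of 257), and both S2 libraries above both S1 libraries for 89 (TMM 54). Over all genes at a mean of 1 CPM or more the S1 libraries were the higher pair for 13.3% and the S2 libraries for 60.3%, or 32.2% and 31.8% by TMM. Of genes at 10 CPM or more that separated the pairs, the S1 pair was higher for 16.8% by library total and 56.1% by TMM. For the variable genes these shares were 62.3% and 77.7%. By TMM 42.7% of genes at 10 CPM or more were lowest in replicate 4, beside 66.9% of the variable ones. On that scale both leaned the same way, the variable genes more strongly. The 15 genes of highest CV at a mean of 10 CPM or more were, from the top, Hbb-y, Hba-x, Hbb-bh1, Afp, Prl2c3, Prl7d1, Cyp17a1, Rhox9, Prl2c2, Rhox6, Prl4a1, Prl3d1, Spink1, Hsd3b6 and Peg10, with CVs from 194% down to 127%. Apart from Spink1 all of these are known from trophoblast, yolk sac or primitive blood, and all but Spink1 were highest in replicate 2. The labels give no other property that goes with the suffix, so what distinguishes the pairs was not tested.

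The 15 genes of lowest CV at a mean of 10 CPM or more had varied roles. Usp39, a splicing factor, was at 43.1, 43.5, 43.2 and 43.0 CPM, a CV of 0.469%. Dctn2, a dynactin subunit that links cargo to microtubule motors, was at 98.8, 97.3, 98.4 and 97.7 CPM. Clta, the clathrin light chain A, was at 109.7, 112, 111 and 110.1 CPM, and Rps20, a small-subunit ribosomal protein, at 289, 289.6, 289 and 285 CPM. The other 11 genes of lowest CV were Pou2f1, Ppm1a, Tpt1, Rnf10, Zdhhc5, Unc45a, Nudt16l1, Nbdy, Csnk1g2, Csnk2b and Snap29, with CVs between 0.499% and 0.919%. Tpt1, translationally controlled tumor protein, was the most abundant of them at 937, 927, 943 and 943 CPM. Among 15 commonly used reference genes, 3 were stable, beside 10.4% of all genes at a mean of 10 CPM or more. The median CV of the 15 was 8.57%, beside 11.9% over all genes at that level. Rplp0, a protein of the ribosomal stalk, was at 1093, 1045, 1060.2 and 1093 CPM, while Actb, cytoplasmic beta-actin, ran from 1989 to 2350 CPM. Tfrc, the transferrin receptor, had the widest CV of the 15, at 18.1%. The direction of these small differences depended on scaling: 7 of 15 were higher in S2 by library total and 9 were higher in S1 by TMM. Over all genes these shares were 60.3% and 32.2%.

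Genes were then grouped in 49 lists by tissue and role, and the summed CPM of each list was followed across the 4 libraries. In 9 lists the CV of the sum was 50% or more: trophoblast prolactins, embryonic globins and erythroid genes, Y-linked genes, yolk sac endoderm, embryo proper, adult globins, B cells, adipocytes and uterine NK cells. Without replicate 1 there were 14 such lists, and without replicate 4 there were 5. In 19 lists both S1 libraries lay above both S2 libraries under each of 4 scalings (library total, TMM, DESeq2 size factors, and library total without the ribosomal-type loci), and in 7 lists the S2 libraries did. In 20 lists the order of the pairs changed with scaling. The 19 included all conceptus lists but heart muscle, and uterine NK cells, lysosome, matrix proteases and endothelium. The 7 were smooth, skeletal and heart muscle, fibrillar collagens, pericytes, complement, and the progesterone and oestrogen axis. A sum can run against most members. Of 8 heart muscle genes at a mean of 1 CPM or more, 6 were higher in S1 and 2 in S2, by library total and by TMM. The dendritic cell sum was among the 19. Of its 6 members at that level, however, 5 were higher in S2 and 1 in S1 on both scales. Over all genes the shares higher in S2 and in S1 were 60.3% and 13.3% by library total. By TMM they were 31.8% and 32.2%.

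**Figure D3:**
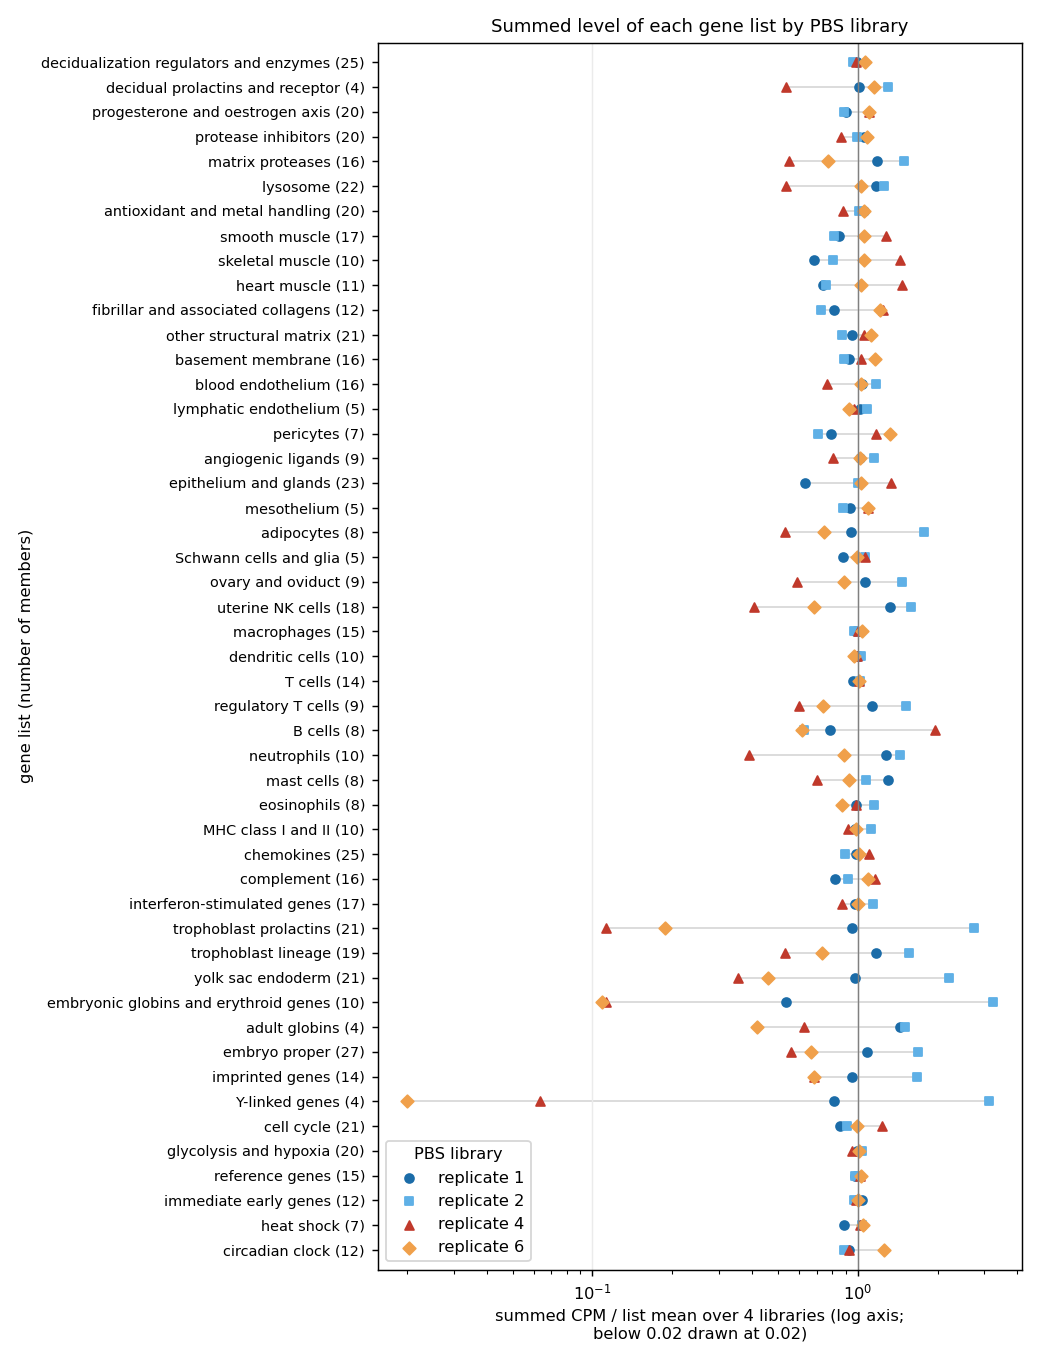
Summed CPM of 49 gene lists in each PBS library divided by the list's mean over the 4 libraries (log axis), 1 row per list and 1 point per library. Decidual regulators, macrophages, T cells and reference genes lie close to 1, and trophoblast prolactins, embryonic globins and Y-linked genes spread most, with replicate 2 highest. The largest member of the T cell sum is Cd247, whose reads are uncertain.

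The regulators and enzymes of decidualization were expressed in every library at nearly the same summed level, 9734, 9458, 9656 and 10466.5 CPM, a CV of 4.49%. All 25 members were at a mean of 1 CPM or more. Hand2, a transcription factor that acts below the progesterone receptor in stroma, was at 938, 837, 752 and 976 CPM, and the homeobox genes Hoxa10 and Hoxa11 were at 344, 317, 439 and 392.3 CPM and 252, 234, 267 and 267 CPM. Tdo2, a tryptophan-degrading enzyme of decidual cells, was at 1241, 1187, 1489 and 1359.5 CPM. Stat3, which carries signals of the cytokine LIF, was the only stable member, at 243, 233, 225 and 238 CPM. Members nevertheless differed among themselves: Bmp2, a growth factor of early decidualization, was at 526, 474, 884 and 851 CPM and Wnt5a, a secreted Wnt ligand, at 242, 161, 414 and 287 CPM, both higher in the S2 libraries. Aoc1, the histamine-degrading diamine oxidase, ran the other way, at 1719.7, 1944, 607 and 1384 CPM. Il11, a cytokine needed for decidualization, had the widest CV of the list (88.5%) at 2.03, 2.34, 11.8 and 4.43 CPM. By library total 15 of 25 were higher in S2 and 5 in S1, against 8 and 7 by TMM. These shares are near those of all genes, 60.3% and 13.3% by library total and 31.8% and 32.2% by TMM.

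The decidual prolactins did not move as 1 group. Prl3c1, another prolactin-family hormone of decidua, was at 77.4, 87.5, 308 and 391 CPM, higher in both S2 libraries under either scaling. Its CV of 73.1% made it the only variable member of this list. Prl6a1 was low throughout, at 7.06, 14.8, 6.28 and 2.71 CPM. The prolactin receptor gene Prlr was at 32.2, 40.3, 61.3 and 66.0 CPM and was higher in both S2 libraries, under TMM as well. Prl8a2 was the highest of these per length and Prl3c1 stood at 232 ± 169.6 CPM per kilobase.

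Of the genes for the progesterone receptor and both oestrogen receptors, the first varied least. Pgr, the progesterone receptor, was at 344, 289.6, 282 and 342 CPM, a CV of 10.51%. Esr1, oestrogen receptor alpha, was at 249, 210, 331 and 290.1 CPM, a CV of 19.3% with both S2 libraries the higher, and Esr2, oestrogen receptor beta, was low at 0.116, 0.0280, 0.247 and 0.211 CPM. Fkbp5, a chaperone induced by steroid receptors, was at 259, 223, 287 and 393 CPM, and Fkbp4, the co-chaperone that assists the progesterone receptor, was at 119, 118, 274 and 155 CPM, highest in replicate 4. Ihh, the hedgehog ligand of luminal epithelium, was at 0.687, 0.728, 0.968 and 0.528 CPM. Steroid-converting enzymes spread widely: Akr1c18, which inactivates progesterone, was at 31.0, 71.6, 1.89 and 15.04 CPM. Hsd17b2, which inactivates oestradiol, was at 3.86, 10.6, 0.217 and 0.394 CPM. Both were highest in replicate 2 and lowest in replicate 4, and the summed list was nonetheless at 1798, 1766, 2200.1 and 2191 CPM.

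Protease inhibitors and secreted proteases both held steady and varying members. The 18 of 20 inhibitors at a mean of 1 CPM or more had a median CV of 19.2% and the 16 matrix proteases one of 28.3%, beside 14.4% over all genes at that level. Of the 15 inhibitors at a mean of 10 CPM or more, 3 were stable and 1 was variable. Over all genes at that level these shares were 10.4% and 2.4%. Cst3, cystatin C, was at 111, 113, 110.1 and 109 CPM (CV 1.55%), Timp1, an inhibitor of metalloproteinases, at 31.2, 30.9, 31.8 and 29.0 CPM, and Serping1, the C1 inhibitor, at 493, 491, 459 and 477 CPM. Serpinh1, a collagen chaperone, was at 691, 636, 1143 and 878 CPM. Timp3, a matrix-bound inhibitor whose exons overlap those of Syn3, was the variable one at 97.0, 93.3, 500.3 and 194 CPM, highest in replicate 4. Htra1 and Htra3, secreted serine proteases, were at 849, 1365, 99.6 and 356 CPM and 965, 1193, 111 and 375 CPM. Adamts5, an enzyme that cleaves aggrecan and versican, was at 720.1, 1004, 74.0 and 292 CPM. All 3 proteases were highest in replicate 2 and lowest in replicate 4, and the S1 and S2 libraries did not overlap. They were the 3 variable members among the 14 matrix proteases at a mean of 10 CPM or more, beside 2.4% of all genes at that level. Mmp2, a gelatinase, was opposite at 135, 104, 284 and 263 CPM. Mmp14, the membrane-type protease that activates it, was at 215, 191, 282 and 245 CPM. By library total 9 of the 16 matrix proteases were higher in S2 and 5 in S1, and by TMM 7 and 6. Over all genes the shares were 60.3% and 13.3% by library total and 31.8% and 32.2% by TMM. The sum of the list was nonetheless higher in S1.

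The lysosome list summed to 23597, 25335, 10782 and 20705 CPM, most of it Psap. Other members were also lower in replicate 4, and by library total 15 of the 22 were lowest there, beside 20.5% of all genes. By library total 10 of 22 were higher in both S1 libraries and by TMM 15, beside 13.3% and 32.2% of all genes. Npc2, a cholesterol-binding lysosomal protein, was at 939.6, 946, 555 and 832 CPM and Ctsb, cathepsin B, at 682, 772, 403 and 552 CPM. Ctsk, cathepsin K, was at 172, 200.3, 62.4 and 122 CPM. Gm2a, the GM2 ganglioside activator, was opposite in direction, at 368, 255, 878 and 599 CPM, and was the only variable member. Cd68, a lysosomal membrane protein counted here with macrophages, was at 64.4, 70.2, 20.97 and 42.6 CPM. The other macrophage genes did not follow it, as given below.

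Antioxidant and metal-handling genes had a median CV of 10.8% over 20 genes. Fth1, ferritin heavy chain, was at 1468, 1317, 1499.6 and 1560.3 CPM, and Prdx6, a peroxiredoxin, at 734, 596, 611 and 952 CPM. Selenop, the secreted selenium carrier, was at 927, 936, 552 and 858 CPM. The metallothioneins Mt1 and Mt2, which bind zinc and copper, were at 526, 500.4, 269 and 469 CPM and 466, 472, 346 and 451 CPM, and Txn1, thioredoxin, was at 542, 546, 418 and 537 CPM. By library total these last 4 were all lowest in replicate 4, as 9 of the 20 were, beside 20.5% of all genes.

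Further abundant genes with the pattern of Htra1 were picked out after their values were seen. Rimklb, which encodes an enzyme that joins N-acetylaspartate and glutamate (chromosome 6, 122447296 to 122498761, minus strand), was at 1034, 1726, 0.997 and 102 CPM. These levels rest on 106873, 184827, 101 and 10638 counts, so the low level of replicate 4 lies well above 3 counts. Procr, the endothelial protein C receptor, was at 484, 667, 26.8 and 112 CPM, Klk7, a kallikrein protease, at 319, 329, 16.1 and 61.4 CPM, and Ada, the adenosine-degrading enzyme abundant at the implantation site, at 220.3, 389.7, 7.72 and 25.5 CPM. Dbi, the acyl-CoA binding protein, was at 970.3, 1224, 116 and 571 CPM. Each was higher in both S1 libraries, with replicate 6 between them and replicate 4. In the other direction, Ptx3, a secreted pattern-recognition protein, was at 3.73, 3.74, 38.8 and 22.5 CPM, and Rxfp1, the relaxin receptor, at 25.2, 31.7, 127 and 105 CPM. Stra6, the cellular retinol transporter, was at 16.9, 15.2, 95.6 and 46.1 CPM and Lrat, which esterifies retinol, at 4.08, 7.62, 26.5 and 12.2 CPM, while Cyp26b1, which degrades retinoic acid, was opposite at 52.2, 99.4, 15.3 and 24.1 CPM.

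**Figure D4:**
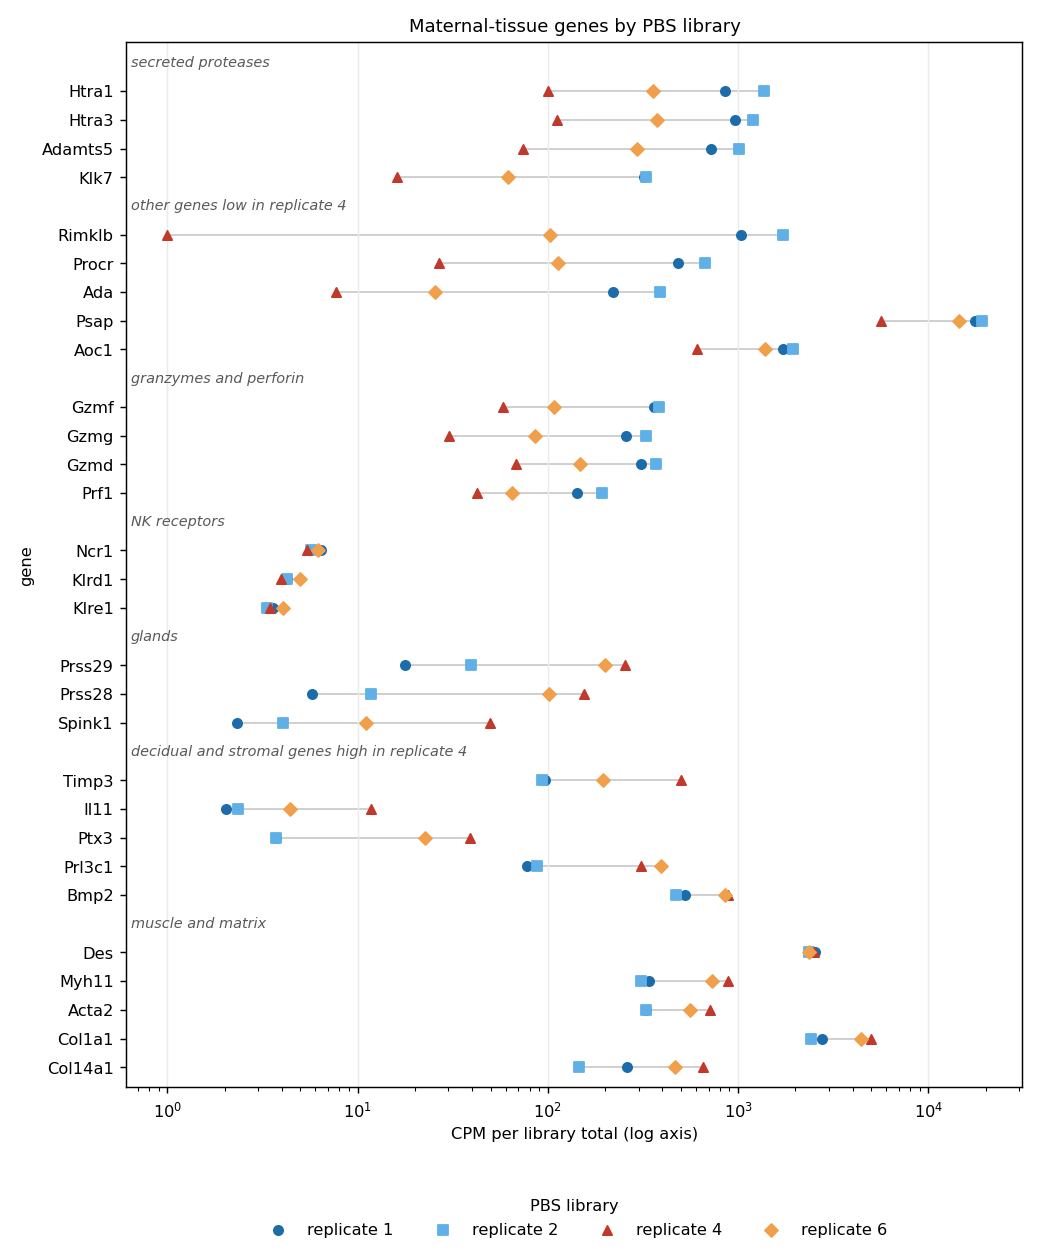
CPM per library total (log axis) of genes of maternal tissue in the 4 PBS libraries, 1 point per library. Proteases, granzymes and Rimklb run from replicate 4 (lowest) through replicate 6 to replicates 1 and 2, Prss28, Prss29, Spink1, Myh11 and the collagens are higher in replicates 4 and 6, and NK receptors and Des hardly differ.

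Smooth muscle genes were expressed in all 4 uteri and were higher in replicates 4 and 6. The summed list was at 4853, 4629.9, 7269.7 and 6047 CPM. Of its 17 members, 16 were highest in replicate 4, where 48.9% of all genes were. Both S2 libraries lay above both S1 libraries for 16 of 17 by library total and 14 by TMM. Over all genes these shares were 60.3% and 31.8%. Myh11, smooth muscle myosin heavy chain, was at 341, 309, 888 and 724 CPM and Acta2, smooth muscle actin, at 329, 328, 707 and 555 CPM. Mylk, myosin light chain kinase, was at 202, 209, 499.6 and 384 CPM. Des, desmin, which decidual cells also make, had the highest level of the list per kilobase and was level at 2532, 2354, 2511 and 2365 CPM, a CV of 3.85%. Oxtr, the oxytocin receptor of myometrium, was low at 3.33, 3.61, 9.03 and 7.08 CPM. Skeletal muscle genes stayed near the detection limit: Myod1 and Myog, which specify that lineage, were at or below 0.00987 CPM, and Acta1, which smooth muscle also expresses, accounted for most of the list's 16.8, 19.9, 35.5 and 26.03 CPM.

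The fibrillar collagens followed the muscle genes. Their summed level was 10571, 9457, 16129 and 15742 CPM. All 12 were higher in both S2 libraries by library total and 10 of 12 by TMM, beside 60.3% and 31.8% of all genes. Col14a1, a collagen that decorates fibrils, was the variable member at 260, 146, 654 and 466 CPM. Col6a1, of the beaded microfibrils, was at 572, 489, 872 and 906 CPM, and Col12a1, another fibril-associated chain, at 134, 123, 272 and 223 CPM. Col5a2 was nearly level at 569.5, 572, 609 and 636 CPM. Among other matrix genes, Fn1, fibronectin, was at 1370.4, 1019, 1574 and 1707 CPM, Fbn1, fibrillin 1, at 1274, 1190.1, 954 and 1212 CPM and Dcn, decorin, at 383, 389, 592 and 491 CPM. Basement membrane genes were steadier, summing to 9827, 9467, 10899.8 and 12321 CPM. Lama5, the laminin alpha 5 chain, was at 1935, 1843, 1907 and 2309 CPM and Col4a1, of the type IV collagen network, at 1575, 1552, 1649.8 and 2105 CPM. Col4a5 had the widest CV there (49.3%) at 71.0, 63.3, 177 and 151 CPM.

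The blood endothelium list summed to 1924, 2175, 1425 and 1908 CPM and was lowest in replicate 4. So were 9 of its 16 members by library total, beside 20.5% of all genes. Cdh5, the cadherin of endothelial junctions, was at 546, 673, 295 and 475 CPM and Pecam1, a junctional adhesion molecule, at 328, 415, 185 and 276 CPM. Kdr, the main VEGF receptor, was level at 118, 129, 119 and 135 CPM. Angpt2, a ligand that loosens vessels during remodelling, had the highest level per kilobase of 9 angiogenic ligands and was at 614, 702, 321 and 532 CPM, higher in S1. Vegfa was at 114, 133, 203 and 180.2 CPM. By library total 7 of the 9 ligands, Vegfa among them, were higher in both S2 libraries and 2 in S1. By TMM these numbers were 5 and 2. Over all genes the shares were 60.3% and 13.3% by library total and 31.8% and 32.2% by TMM. By library total and by TMM all 7 pericyte genes were higher in both S2 libraries, beside 60.3% and 31.8% of all genes. Rgs5, a signalling regulator of pericytes, was at 226, 196, 289 and 369 CPM. Of lymphatic markers, Lyve1, a hyaluronan receptor also found on macrophages, was at 34.4, 36.8, 83.6 and 50.5 CPM, while Prox1, the transcription factor of lymphatic identity, was level at 7.33, 7.36, 7.10 and 7.78 CPM.

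Gland and epithelial genes ran in opposite directions. The implantation serine proteinases Prss28 and Prss29, secreted by uterine glands, were at 5.73, 11.8, 155 and 101 CPM and 17.8, 39.6, 255 and 199 CPM. Spink1, a trypsin inhibitor, was at 2.33, 4.04, 49.5 and 11.1 CPM. All 3 were far higher in replicate 4 than in replicate 1, and the S1 and S2 libraries did not overlap. Foxa2, the transcription factor that defines gland epithelium, did not follow them and was at 0.726, 1.10, 1.14 and 0.586 CPM, and Cdh1, E-cadherin, was level at 31.6, 43.4, 35.8 and 33.4 CPM. The keratins ran in reverse, with Krt8 at 49.0, 101, 16.8 and 17.2 CPM and Krt7 at 33.1, 64.7, 15.8 and 16.6 CPM, both highest in replicate 2. Trophoblast and embryo express these keratins too, and the conceptus genes described below were also highest in replicate 2. Ltf, lactoferrin, an oestrogen-induced epithelial product, was at 4.97, 6.53, 15.3 and 3.39 CPM, and Lif, the implantation cytokine, at 2.23, 3.61, 1.76 and 1.18 CPM.

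Prss28 and Prss29 lie side by side on chromosome 17 and moved together, so the 250 bases before each RefSeq start are shown (GRCm38.p6, chr17:25308396-25308645 and chr17:25318404-25318653, both on the plus strand, 5′ to 3′). Capitals mark words of 10 or more bases that both hold. The 2 stretches share 173 identical aligned bases (69.2%), which describes their sequence and was not related to the levels.
Prss28: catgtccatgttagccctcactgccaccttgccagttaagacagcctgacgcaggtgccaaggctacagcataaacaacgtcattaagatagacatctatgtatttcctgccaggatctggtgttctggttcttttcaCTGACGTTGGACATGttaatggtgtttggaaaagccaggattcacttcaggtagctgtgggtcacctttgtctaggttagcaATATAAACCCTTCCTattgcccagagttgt
Prss29: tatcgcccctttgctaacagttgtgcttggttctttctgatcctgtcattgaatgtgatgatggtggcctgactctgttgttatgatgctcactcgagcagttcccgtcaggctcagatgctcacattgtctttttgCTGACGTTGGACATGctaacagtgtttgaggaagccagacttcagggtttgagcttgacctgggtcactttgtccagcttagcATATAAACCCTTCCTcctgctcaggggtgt

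Uterine NK genes spread widely between the libraries. Of 11 members at a mean of 10 CPM or more 6 were variable, beside 2.4% of all genes at that level. These 6 all encode granule proteins. The list summed to 1957, 2348, 600 and 1011 CPM. By library total 15 of its 18 members were lowest in replicate 4, as were 20.5% of all genes. The granzymes, serine proteases of cytotoxic granules, led it: Gzmf was at 361, 382, 58.4 and 107 CPM, Gzmd at 308, 372, 67.6 and 148 CPM, Gzmg at 256, 329, 30.2 and 85.5 CPM and Gzmc at 263, 327, 69.1 and 134 CPM. Prf1, the pore-forming perforin, was at 142, 192, 42.3 and 65.0 CPM. Receptors and regulators of the lineage were mixed. Nearly level were Ncr1 (NKp46) at 6.44, 5.70, 5.39 and 6.16 CPM, Klrd1 (CD94) at 4.24, 4.25, 3.94 and 4.98 CPM and Tbx21 (T-bet) at 1.01, 0.980, 1.12 and 1.22 CPM. Eomes, the other T-box regulator of NK cells, was at 17.0, 18.4, 8.58 and 10.9 CPM and Il2rb, the shared receptor chain for interleukins 2 and 15, at 87.2, 98.4, 48.4 and 57.3 CPM, both higher in the S1 libraries like the granzymes. The variable members were Gzmc, Gzmd, Gzme, Gzmf, Gzmg and Prf1. Ncr1, Klrd1 and Tbx21 were below 10 CPM and so could not be called variable. For 12 of 18 members the S1 libraries were the higher pair by library total, and for 14 by TMM. Over all genes these shares were 13.3% and 32.2%.

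Macrophage genes varied little in sum, at 463, 458, 475 and 490.1 CPM. Csf1r, the receptor for macrophage growth factor, was at 139, 128, 116 and 132 CPM and Lyz2, lysozyme, at 75.0, 80.3, 105 and 91.6 CPM. C1qa, a subunit of complement C1q, was at 28.1, 26.8, 30.8 and 27.4 CPM. The small difference in the sum between pairs changed direction with scaling, higher in S2 by library total and in S1 by TMM. Dendritic cell genes summed to 67.1, 68.0, 66.1 and 64.2 CPM, of which Irf8, a transcription factor shared with other myeloid cells, gave the most at 42.6, 42.6, 28.0 and 30.3 CPM. Clec9a, a receptor of the cross-presenting subset, was at 3.02, 3.90, 5.10 and 5.06 CPM. The class II genes H2-Aa and Cd74 were at 29.2, 33.9, 53.4 and 43.4 CPM and 56.7, 66.4, 96.0 and 77.6 CPM, and the class I gene H2-D1 was opposite at 268, 309, 200.1 and 245 CPM.

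Genes that define T cells were low. Of 14 T cell genes 4 were at a mean of 1 CPM or more, and of 9 regulatory T cell genes 7 were. Over all genes 16051 of 49585 were at that level, a share near that of the T cell genes. Cd3e, a chain of the T cell receptor complex, was at 0.184, 0.149, 0.415 and 0.298 CPM, and Cd8a, the co-receptor of cytotoxic T cells, at 0.0871, 0.0747, 0.444 and 0.221 CPM. Cd247, the zeta chain that NK cells also use, was at 12.7, 13.0, 13.0 and 13.6 CPM. It shares 53.5% of its 75-base windows with other genes and overlaps Pou2f1, so its reads are uncertain. Foxp3, which specifies regulatory T cells and whose locus carries the toxin receptor, was at 4.34, 3.95, 5.69 and 4.93 CPM in these controls. Its exons overlap those of Ccdc22, Flicr and Ppp1r3f, so reads from these cannot be told apart. Il2ra and Ctla4, surface proteins of regulatory T cells, were at 9.06, 16.9, 2.05 and 4.61 CPM and 1.21, 2.07, 0.296 and 0.432 CPM, both higher in the S1 libraries, whereas Foxp3 was higher in S2 by library total and overlapped by TMM. Tnfrsf9, a receptor of activated lymphocytes and of NK cells, made up most of that list at 87.2, 116, 36.5 and 49.5 CPM.

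Antibody genes were highest in replicate 4. Ighm, the mu heavy chain, was at 15.1, 12.3, 33.6 and 12.2 CPM and Jchain, which joins antibody subunits, at 3.79, 1.16, 15.1 and 2.24 CPM. Igkc and Igha, the kappa and alpha constant regions, were named after their values were seen and were at 9.62, 3.45, 36.1 and 5.40 CPM and 13.8, 4.25, 38.5 and 9.41 CPM. Cd79a, a chain of the B cell receptor complex, did not follow them and was at 0.319, 0.457, 0.622 and 0.422 CPM. Among neutrophil genes, S100a8, a calcium-binding protein, was at 129, 144, 28.9 and 83.3 CPM although its usual partner S100a9 was at 0.377, 0.579, 1.66 and 1.13 CPM. Elane and Ngp, granule proteins of neutrophils, were at or below 0.0384 CPM. Ly6g, a neutrophil surface protein, was named after its values were seen: it had 2, 2, 509 and 418 counts, so it was near 0 in both S1 libraries and present in both S2 libraries. Kit, a receptor of mast cells and other cells, was at 368, 301, 181 and 252 CPM, while the mast cell protease gene Cma1 was at 2.999, 1.90, 3.09 and 1.92 CPM. Epx, Prg2 and Prg3, which define eosinophils, were at or below 0.178 CPM.

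Among secreted immune mediators, Cxcl14 had the highest level per kilobase of 25 chemokines and was at 831, 739, 858 and 800.2 CPM, and Cxcl12, which retains leukocytes and stem cells, was at 50.7, 48.4, 105 and 100.3 CPM. Of the 25, 13 were at a mean of 1 CPM or more, beside 16051 of all 49585 genes. C3, the central complement protein, was at 215, 329, 459.8 and 413 CPM, higher in the S2 libraries. By library total interferon-stimulated genes were lowest in replicate 4 for 12 of 17 and highest in replicate 2 for 13 of 17. Over all genes these shares were 20.5% and 16.5%. Isg15, a ubiquitin-like protein, was at 22.1, 26.9, 15.9 and 21.1 CPM and Usp18, which removes it, at 21.2, 26.1, 11.5 and 16.3 CPM.

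Genes of the conceptus spread most between the libraries, most of them in the order replicate 2, replicate 1 and then the S2 pair. The 21 trophoblast prolactins summed to 371, 1069.9, 43.8 and 73.5 CPM. Prl7a1 was at 115, 280.3, 3.82 and 15.2 CPM and Prl4a1 at 68.6, 197, 1.28 and 5.83 CPM. Prl3d1, placental lactogen I of trophoblast giant cells, was at 49.8, 173, 4.73 and 8.15 CPM, and Prl2c3, a proliferin, at 49.9, 196, 0.365 and 2.99 CPM. Prl3d1 and Prl2c3 share 34.6% and 51.7% of their windows with other genes, most of them close relatives, so their values are uncertain as single genes. Of the 16 members at a mean of 1 CPM or more, 14 were highest in replicate 2, beside 16.5% of all genes. Prl8a9 and Prl7a2 were the 2 exceptions with S2 above S1, and Prl8a9 was at 8.97, 5.35, 23.2 and 24.1 CPM. Of the 21, 8 were at a mean of 10 CPM or more. All 8 had a CV of at least 50% and so were variable, beside 2.4% of all genes at that level. Of the decidual members of the same family, Prl8a2 was not variable and Prl3c1 was.

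Other trophoblast genes had the same order of libraries. Hand1, a transcription factor of giant cells, was at 53.9, 99.5, 2.24 and 7.33 CPM and Plac1, a placental surface protein, at 27.6, 46.9, 1.83 and 5.03 CPM. Tpbpa, a marker of the ectoplacental cone and spongiotrophoblast, was at 8.90, 26.3, 1.01 and 1.91 CPM. Rhox6 and Rhox9, X-linked homeobox genes of placenta, were at 14.3, 42.4, 0.119 and 1.02 CPM and 10.1, 32.9, 0.0395 and 0.605 CPM. Gata3, also expressed by maternal cells, was level at 157, 123, 133 and 137 CPM, and Tfap2c was lowest in replicate 4 at 75.8, 86.1, 28.4 and 70.5 CPM. Synb, which fuses labyrinth trophoblast, had 0 counts in all 4 libraries, but 74.5% of its windows occur in other genes. Ceacam9 and Psg29, glycoproteins secreted by trophoblast and named after their values were seen, were at 48.1, 103, 0.573 and 1.70 CPM and 132, 224, 15.9 and 36.4 CPM. The steroid enzymes Cyp17a1 and Hsd3b6, known in giant cells, were at 14.8, 48.5, 0.0889 and 0.816 CPM and 44.6, 169, 18.8 and 3.88 CPM.

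Yolk sac and primitive blood followed the same order. Afp, alpha-fetoprotein, was at 6.71, 34.6, 0.444 and 0.979 CPM, Apoa1, an apolipoprotein, at 8.22, 20.7, 0.750 and 1.86 CPM and Cubn, an endocytic receptor of visceral endoderm, at 19.5, 41.2, 2.76 and 5.39 CPM. Apoc2 had 0 counts in every library, with 77.5% of its windows in other genes. The embryonic globins, made by the first red cells of the yolk sac, came almost wholly from the S1 libraries: Hba-x (zeta) had 1685, 11636, 1 and 2 counts, Hbb-bh1 (beta-H1) 1908, 11017, 0 and 19 and Hbb-y (epsilon) 166, 7213, 1 and 0. In CPM Hba-x was at 16.3, 109, 0.00987 and 0.0192 and Hbb-y at 1.61, 67.3, 0.00987 and 0. Replicate 2 exceeded replicate 1 for each, most for Hbb-y. Adult globins, which maternal blood carries, varied less: Hbb-bs was at 41.4, 39.4, 18.8 and 12.8 CPM and Hba-a1 at 8.97, 12.5, 3.06 and 2.47 CPM, with 51.5% and 67.9% of windows in near-identical copies or other genes. Erythroid genes followed the embryonic globins in part: Slc4a1, the red cell anion exchanger, was at 1.41, 14.2, 0.148 and 0.182 CPM, and Tal1, which endothelium and other blood cells also use, was level at 7.40, 9.66, 7.94 and 8.21 CPM.

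The starts of Hba-x and Hbb-y are shown because these genes had the highest CVs of all genes at a mean of 10 CPM or more with a gene symbol (RefSeq, GRCm38.p6, 250 bases before the start, 5′ to 3′). Hba-x lies at chr11:32276350-32276599 on the plus strand and Hbb-y at chr7:103853208-103853457 on the minus strand. Capitals mark 3 words read on either strand. GATAA is part of sites bound by GATA factors, CACCC of sites of Kruppel-like factors, and CCAAT of sites of the factors named after it. They do not overlap one another here. Counted to the first base of the word, Hba-x holds CACCC 95 and 198 bases before the start and GATAA 107 bases before it. Hbb-y holds CACCC at 111, CCAAT at 83 and, on the other strand, GATAA at 162. These words are common: of 32851 promoter stretches of this length, 22.6% hold GATAA, 52% CACCC and 33.8% CCAAT, so a match is a description only.
Hba-x: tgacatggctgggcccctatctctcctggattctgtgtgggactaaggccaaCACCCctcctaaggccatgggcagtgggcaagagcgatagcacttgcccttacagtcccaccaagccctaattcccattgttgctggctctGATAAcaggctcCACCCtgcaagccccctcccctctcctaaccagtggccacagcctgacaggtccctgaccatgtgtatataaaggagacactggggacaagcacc
Hbb-y: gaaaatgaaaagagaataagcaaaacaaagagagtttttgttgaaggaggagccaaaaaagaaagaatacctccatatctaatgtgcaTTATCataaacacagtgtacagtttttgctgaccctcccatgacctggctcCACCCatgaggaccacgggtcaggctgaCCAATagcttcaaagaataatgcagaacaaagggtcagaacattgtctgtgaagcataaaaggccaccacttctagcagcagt

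Genes of the embryo proper were low everywhere. Their 27 members summed to 52.8, 81.6, 27.3 and 32.4 CPM, and 7 were at a mean of 1 CPM or more. Over all genes 16051 of 49585 were at that level, a share near that of these members. Lin28a, an RNA-binding protein of early embryos, was at 16.0, 30.0, 1.54 and 4.37 CPM and Sall4, a transcription factor of pluripotent cells, at 6.44, 10.9, 1.31 and 2.28 CPM. Sox2, of neural plate and pluripotent cells, was at 0.774, 1.89, 0.0296 and 0.2304 CPM, and Shh, a signal of notochord and floor plate, had 19, 50, 0 and 1 counts. Of heart genes, Myh6 and Myl7 were at 2.05, 6.58, 0.523 and 0.326 CPM and 0.987, 2.51, 0.178 and 0.173 CPM, in the conceptus order. Hcn4, a pacemaker channel, was opposite at 119, 103, 255 and 178 CPM, with a higher level per kilobase than the other 10 heart genes, and set the sum of the list. Y-linked genes are absent from the mothers' own genome and mark male conceptuses. Ddx3y, an RNA helicase, had 229, 937, 13 and 0 counts and Eif2s3y, a translation factor, was at 0.629, 3.36, 0.109 and 0.00960 CPM. Xist, the RNA of the inactive X, was at 996, 1024, 1119 and 1347 CPM.

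Imprinted genes joined the conceptus pattern only in part. H19, a maternally expressed noncoding RNA, was at 499, 1043, 56.1 and 88.8 CPM and its neighbour Igf2, a growth factor, at 111, 254, 12.9 and 21.4 CPM. Peg10, a retrotransposon-derived gene of placenta, was at 182, 497, 13.2 and 21.2 CPM and Phlda2, which restrains placental growth, at 12.4, 19.4, 1.48 and 2.48 CPM. Grb10, an inhibitor of growth factor signalling, was higher in the S2 libraries at 328, 318, 573 and 457 CPM, and Igf2r, the receptor that clears Igf2, was level at 181, 198, 199 and 214 CPM. Igf2bp1 and Hmga2, fetal growth genes named after their values were seen, were at 33.0, 62.7, 4.92 and 7.44 CPM and 9.62, 23.6, 2.90 and 4.35 CPM, in the order of H19.

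**Figure D5:**
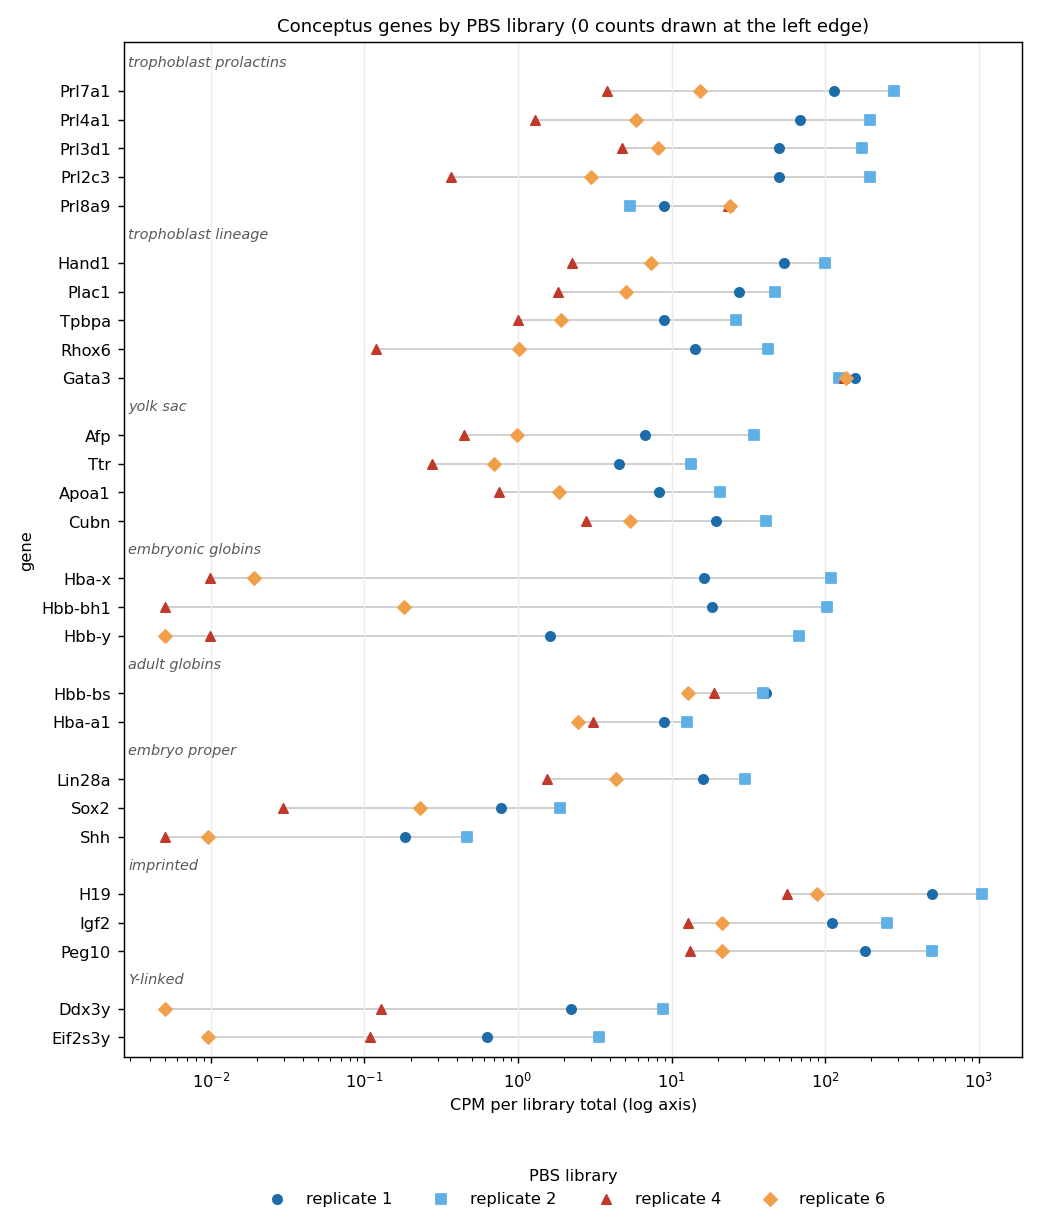
CPM per library total (log axis) of conceptus genes in the 4 PBS libraries, 1 point per library, with 0 counts drawn at the left edge (a single count is near 0.01 CPM). Replicate 2 is the highest and replicate 4 or 6 the lowest for all genes drawn except Prl8a9, Gata3 and Hbb-bs.

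Genes known from oviduct, ovary, fat, mesothelium and nerve were also counted, and whether such tissue was in the samples was not tested. Ovgp1, the oviduct glycoprotein, was at 0.832, 1.10, 13.4 and 10.8 CPM, present mainly in the S2 libraries. Lhcgr, the receptor for luteinizing hormone in the ovary, was at or below 0.0395 CPM and Hsd3b1, a steroid enzyme of ovary and adrenal, at or below 0.215 CPM. Star, the cholesterol carrier for steroid synthesis, was nevertheless at 55.9, 205, 13.2 and 14.5 CPM and Cyp11a1, the first enzyme of that pathway, at 768, 903, 436 and 672 CPM. Adipoq, adiponectin of fat cells, was at 0.339, 2.67, 1.11 and 0.298 CPM and Cfd, adipsin, at 1.03, 6.81, 1.37 and 1.39 CPM, both highest in replicate 2. Fabp4, a fatty acid carrier that fat shares with endothelium, made up most of the adipocyte list at 169.5, 309.9, 89.6 and 132 CPM. Wt1, a transcription factor of mesothelium and of uterine stroma, was at 352, 328, 435 and 432 CPM, while Msln, a mesothelial surface protein, was at 24.7, 25.7, 10.2 and 16.2 CPM. Sox10, of Schwann cells, was at or below 0.681 CPM.

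Among cell-state genes, proliferation genes were expressed throughout. Of these, 17 of 21 were highest in replicate 4 by library total, where 48.9% of all genes were, and by TMM the sums of the S1 and S2 libraries overlapped. Mki67, a marker of cycling cells, was at 128, 160.2, 185 and 161 CPM and Ccna2, cyclin A2, at 71.3, 74.7, 131 and 87.9 CPM. E2f8, which drives the polyploid cycles of decidual and giant cells, was at 110.3, 106, 192 and 152 CPM. Glycolysis genes summed to 5139, 5369, 4886 and 5205 CPM, with Epas1, the hypoxia-inducible factor 2 alpha, at 1627, 1618, 1345 and 1951 CPM, Ldha, lactate dehydrogenase A, at 372, 436, 301 and 278 CPM and Slc2a1, the glucose transporter GLUT1, opposite to Ldha at 163, 164, 402 and 251 CPM. Immediate early genes, which respond to handling within minutes, included Fos at 63.7, 66.4, 57.2 and 61.1 CPM. Heat shock genes summed to 1482, 1739, 1713 and 1751 CPM. Clock output genes stood apart in replicate 6: Per3 was at 8.64, 8.82, 12.3 and 22.3 CPM, Dbp at 4.01, 3.94, 7.11 and 12.1 CPM and Nr1d2 at 48.3, 47.8, 46.0 and 73.8 CPM, while Arntl, which peaks in the opposite phase, was at 15.2, 15.8, 21.4 and 14.6 CPM. The labels do not give the hour of collection, and its part was not tested.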

How the data were processed

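The deposited values were raw read counts, whole numbers for 49585 Ensembl genes, which the authors had not normalized. Per the labels' protocols, RNA came from Trizol extraction and an Illumina TotalPrep amplification, libraries from the Kapa mRNA hyperprep kit and paired reads from a NextSeq 500. Per the submitters' processing notes, the tools were HISAT2, Trimmomatic, SAMtools, featureCounts and DESeq2, on GRCm38. Versions, strand setting and the handling of shared reads are not stated there, so overlapping genes and near-identical copies could not be told apart.

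Only the 4 PBS columns were used, and no DT comparison was made. The series table and the tables per library differed in 0 cells, and no pair of libraries agreed within sampling noise (chi-square per degree of freedom at least 48.6). IDs were matched to GENCODE M21 (49326 matched, and the other 259 held 0.0798% of counts), which gave symbols, coordinates and exon lengths. Levels are CPM per library total, with mean, SD, CV and rank per gene, computed in Python 3.11.15 with pandas 2.3.3. TMM factors came from edgeR 4.0.16 and size factors from DESeq2 1.42.0, for scaling only. There was 1 group, so no test between groups was run, and Dixon's criterion was applied to single libraries. The CV code was tested on simulated data. Windows of 75 bases that a gene's transcripts share with other genes were counted, and shares of at least 10% were looked for. The labels give 4 PBS females and 4 libraries without tying each library to 1 animal, so the spread between libraries may be partly technical.

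The members and the 49 lists (674 genes) were chosen with earlier results of these data known. Named genes were the 5 markers, the 15 highest by CPM (mitochondrial genes left out) and by CPM per kilobase, up to 4 members per list by level and the 1 with the highest CV, the 15 highest and 15 lowest CVs, Foxp3, Xist, the adult globins and members at 0. Further list members are given for their role, other genes are marked where they were named after their values were seen, and a few genes are not reported here. Alternatives were other scalings, other minimum levels, counting variance subtracted, mitochondrial or ribosomal-type loci left out, CPM per kilobase, and each library left out.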

Additional observations from a re-analysis of the deposited data

Results flagged for a closer look

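In groups of 4 samples, a value was singled out when its gap to the nearest other library exceeded Dixon's 95% critical share of the whole range. Of 327 list sums and named genes examined, 13 met this, a smaller share than the 1 in 20 groups that chance flags. Replicate 2 was the high library for embryonic globins and erythroid genes in sum (316.6 CPM, others 10.7 to 52.4), for Hba-x (108.6 CPM, others 0.00987 to 16.3), Hbb-y (67.34 CPM, others 0 to 1.61) and Cfd (6.806 CPM, others 1.03 to 1.39). Replicate 4 was the high library for the B cell sum (51.95 CPM, others 16.4 to 20.9) and Ighm (33.57 CPM, others 12.2 to 15.1). It was the low library for Lamp1 (454.1 CPM, others 585 to 609), Mt2 (346.4 CPM, others 451 to 472) and Txn1 (417.6 CPM, others 537 to 546). Replicate 6 was the high library for the circadian clock sum (621.5 CPM, others 441 to 461) and Nr1d2 (73.77 CPM, others 46.0 to 48.3). Replicate 1 was the low library for the heat shock sum (1481.8 CPM, others 1713 to 1751) and the T cell sum (25.33 CPM, others 26.7 to 27.0). The heat shock and T cell gaps are small relative to their levels, and with TMM scaling replicate 4 was the lowest library for both. Cd247, the largest member of the T cell sum, has uncertain reads, and Cd3e and Cd8a were less level than that sum.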

How the results depend on the processing

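No paired analysis was possible because only 1 group, the PBS libraries, was in use. Spread depended on scaling and on the minimum level. The median CV of genes at a mean of 1 CPM or more was 14.4%, 11.67% with TMM, 11.74% with DESeq2 size factors, 12.7% with a minimum of 5 CPM and 31.03% with no minimum. Leaving out 1 library at a time gave 11.74% (without replicate 4) to 15.32% (without replicate 6). Stable genes numbered 1081, 1968 with TMM and 1879 with DESeq2 size factors, and 1262 to 2079 with 1 library left out. Variable genes numbered 250, 379 with a minimum of 5 CPM and 12231 with no minimum, where counting error dominates, and 172 (without replicate 4) to 367 (without replicate 6) with 1 library left out. TMM gave 257 variable genes and DESeq2 size factors 255. Without the ribosomal-type loci, an alternative chosen after seeing the data, the 10 most abundant genes took 7.93% of counts in place of 12.2%. Lists whose sum had a CV of 50% or more numbered 9, and 5 to 14 with 1 library left out. The genes at 1 CPM or more in every library (15220) and the genes holding 50% of counts (888) kept within 1.5 times their value under all alternatives run. Mean list sums that rest on replicate 2 fell without it: embryonic globins and erythroid genes from 97.67 to 24.68 CPM, trophoblast prolactins from 389.5 to 162.7 CPM, yolk sac endoderm from 113.2 to 67.55 CPM and Y-linked genes from 5.138 to 1.505 CPM. Without the ribosomal-type loci, 7 list sums moved by more than 1 SD. Depth limits only genes near 3 counts, below 0.0296 CPM. The number of libraries limits every CV.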

Other observations

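Some secreted products that no list held were chosen after their values were seen. Spp1, osteopontin, was at 273, 342, 98.8 and 134 CPM, higher in both S1 libraries. Ren1, renin, was at 21.4, 37.2, 3.17 and 9.33 CPM in the same order. Prap1, an acidic secreted protein known from uterine glands, was at 347, 579, 300.2 and 413 CPM and did not follow the gland proteases Prss28 and Prss29. Its exons overlap those of Fuom, and 16.1% of its windows occur in other genes.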
